A study of Canis lupus familiaris with 17 samples.

Results

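Immature B cells were examined here among the circulating leukocytes of 7 healthy dogs and 10 dogs with osteosarcoma (OS). The members were chosen by measured UMI counts. A barcode was a member when it held at least 1 UMI of MS4A1 or PAX5, no CD3E, at least 2 of the 5 genes SYT1, VPREB3, ERC2, KLHL14 and ADGRF1, and fewer than 2 of CACNB2, RASGRF2, AOX2 and ADAM32, the genes of the study's activated B cells. Of 84345 kept barcodes, 6994 passed the MS4A1 or PAX5 gate without CD3E (gated B cells), and 1872 of these were immature B cells by the rule. The healthy dogs gave 997 of the members and the OS dogs 875.

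All dogs were client-owned pets of wild-type genotype, and each gave 1 library of peripheral blood mononuclear cells on the Chromium 3′ platform. The healthy dogs were clinically healthy and 6.9 to 8.8 years old by the study's list of dogs. The OS dogs had a primary bone tumor, had received no treatment and were 5.7 to about 12 years old (median 8.4), with 5 of them older than the oldest healthy dog. Dogs with OS were a naturally occurring patient group of mixed breeds, so age, breed and disease cannot be fully told apart.

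B cells are made in the bone marrow, where a precursor rearranges its immunoglobulin genes, displays a surface IgM receptor and leaves for the blood as an immature or transitional cell. VPREB3 is related to VPREB1, a part of the surrogate light chain, and is known from this early window, while SOX4 and MYB are transcription factors of early lymphocyte development. Memory B cells and plasma cells lie at the far end of the same lineage, the latter committed to antibody secretion.

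The deposited values were UMI counts per gene and barcode, and 1239 to 7070 barcodes per dog were kept. Members carried a median of 4387.5 UMIs and 1829 genes, with medians per dog from 3447 to 5852.5 UMIs. The summed member counts per dog ran from 88911 to 1295115 UMIs, and OS dogs 3 and 5 had 23 members each. Taking the highest doublet scores up to the expected rate marked 38 members (2.03%), and the caller's own threshold marked 17. The 136 pairs of libraries shared 1136 cell barcodes, with at most 22 in any pair, and 1 of these joined the member sets of different dogs.

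The 5 genes that chose the members were not detected equally. KLHL14, which encodes a Kelch family protein, was present in 77.0% of members, and SYT1, a calcium sensor best known from synaptic vesicle release, in 63.9%. ERC2, a scaffold of the presynaptic active zone, was found in 41.6%, VPREB3 in 29.1% and the adhesion receptor gene ADGRF1 in 27.8%. PAX5, the factor that holds cells in the B lineage, was detected in 93.2% of members and MS4A1 (CD20) in 58.4%. These shares describe the rule and were not tested.

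The background of each gene in barcodes that should lack it was low. Among 45303 barcodes with CD3E and without MS4A1 or PAX5, at a median of 5535 UMIs, KLHL14 was detected in 0.338%, SYT1 in 0.0949%, VPREB3 in 0.0177%, ERC2 in 0.912% and ADGRF1 in 0.115%. Only 17 of these barcodes (0.0375%) held 2 or more of the 5 genes. Among 31164 barcodes without CD3E, MS4A1 or PAX5 the corresponding number was 192 (0.616%). Other B cells did carry these genes. Of 895 gated B cells with 2 or more activated genes (the activated type), 424 (47.4%) held 2 or more of the 5. SYT1 was in 45.8% and KLHL14 in 49.4% of the activated type, and KLHL14 in 41.0% of all gated B cells. The 5 genes thus set members apart from other leukocytes more than from other B cells.

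The most common combination was SYT1 with KLHL14 alone, in 454 members (24.3%). ERC2 with KLHL14 followed in 193, VPREB3 with KLHL14 in 157 and KLHL14 with ADGRF1 in 133. Within gated B cells outside the activated type, each pair listed here was found more often together: SYT1 was detected in 40.9% of cells with ERC2 and in 22.2% of cells without it. KLHL14 was detected in 55.5% of cells with SYT1 and in 34.4% of cells without it.

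The mix of genes differed from dog to dog. In the healthy dogs the share of members with SYT1 was 64.8% at the lowest, 71.4% at the median and 83.5% at the highest. In the OS dogs it was 8.14%, 56.3% and 82.5%. The value of 8.14% belonged to OS dog 4, while the next lowest OS dog had 43.2%. In the same dog SYT1 was found in 3.69% of gated B cells, against 12.12% or more in every other dog, while its members often held KLHL14 (88.4%), VPREB3 (51.7%) and ADGRF1 (41.9%). ERC2 ranged from 15.9% to 72.6% of members over the 17 dogs and ADGRF1 from 4.76% to 49.0%, so that the rule drew on different genes in different dogs.

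**Figure D1:**
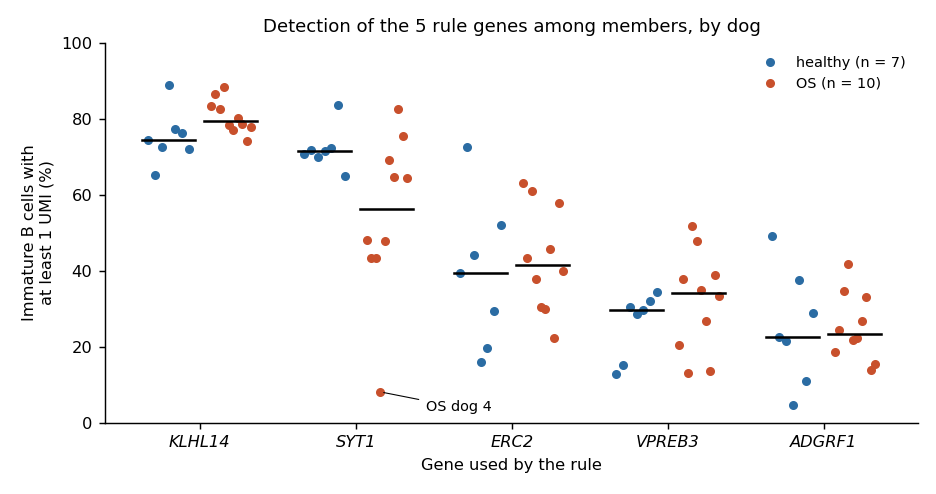
Percent of immature B cells with at least 1 UMI of each of the 5 rule genes (vertical axis) by gene, with 1 point per dog (blue healthy, orange OS) and a black line at each group's median. OS dog 4 stands apart for SYT1 at 8.14%, and ERC2 spreads from 15.9% to 72.6%.

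How far a cell met the rule went along with other transcripts. Gated B cells outside the activated type were grouped by how many of the 5 genes they held: 0 (2240 cells, called mature-type here), 1 (1987 cells, just outside the rule), 2 (1284 members, just inside), 3 (454) and 4 or 5 (134). Levels are given as CPM, the UMIs of a gene scaled to a common library total, over all cells of a class, and no test was made. Median UMIs per cell also differed, at 4205, 3935, 4214, 4667 and 5328.5 for these classes, and their part in the differences was not tested.

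TMTC2, a further gene of the study's list for these cells, went from 1.32 CPM with none of the 5 genes to 6.57 with 1, 23.99 with 2, 114 with 3 and 231 with 4 or 5. SOX4 went from 2.56 to 4.04, 11.6, 25.1 and 48.5 CPM, and MYB from 5.49 to 6.802, 15.8, 33.9 and 62.6 CPM. BACH2, a repressor that keeps B cells from becoming plasma cells, was at 1444, 4355, 6082, 7168 and 8505 CPM. In these sums over all dogs the 4 genes were higher in each class than in the one before it. Dogs gave unequal shares of each class and had unequal levels, and the order was not counted by dog.

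IgM heavy chain transcripts (IGHM) were detected in 20.8% of cells with none of the 5 genes, then in 39.7%, 52.0%, 59.0% and 73.1%. Their level had no such order, at 1029, 186, 224, 233 and 296 CPM, and was highest in the cells with none. The order opposite to that of TMTC2 was seen for CD80, a costimulatory ligand of memory and activated B cells, at 42.5, 18.4, 8.85, 2.20 and 1.28 CPM. TNFRSF13B, the receptor TACI, was at 76.8, 23.3, 15.8, 9.69 and 2.55 CPM. BCL2 and HTR1F had no such order: BCL2, a survival factor, was at 710, 1548, 1576, 1331 and 837 CPM, so the cells with most rule genes had about the level of the cells with none.

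**Figure D2:**
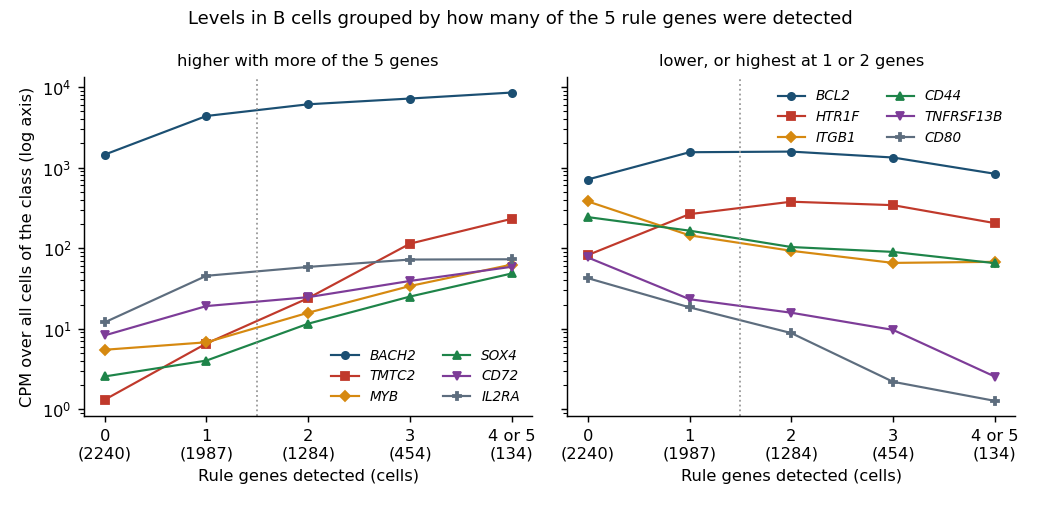
CPM (log axis) over all B cells with 0, 1, 2, 3 and 4 or 5 of the rule genes, with cell numbers under the axis and a dotted line at the rule's threshold. TMTC2 goes from 1.32 to 231 CPM and CD80 from 42.5 to 1.28 CPM, while BCL2 is highest at 1 and 2 genes.

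Members with and without VPREB3 did not look alike. The 545 members with VPREB3 had 126 CPM of TMTC2 against 33.4 in the 1327 members without it, 32.0 against 11.2 CPM of SOX4, and 44.5 against 14.2 CPM of MYB. AKAP12, a kinase scaffold, was at 61.6 and 15.4 CPM, and CD72, a coreceptor of B cells, at 50.1 and 21.7 CPM. MYB was higher with VPREB3 in 13 of the 16 dogs that had at least 10 members of each kind, and SOX4 in 11 of 16.

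Other genes were lower with VPREB3. BCL2 was at 691 CPM with VPREB3 and 1839 CPM without it, BACH2 at 4683 and 7541, HTR1F, a serotonin receptor gene on the study's naive B cell list, at 104 and 480, and CCR7, a homing receptor for lymph nodes, at 71.5 and 134. Each of these 4 genes was lower with VPREB3 in 16 of 16 dogs. EBF1, also on the naive list, was at 544 and 580 CPM over all cells, but higher with VPREB3 in 11 of 16 dogs. RAG1, a recombinase of immunoglobulin rearrangement, gave 8 UMIs among all members, all in 0.367% of the 545 members with VPREB3. A member without VPREB3 must hold 2 of the other 4 genes, so the 2 kinds also differ by construction, and no test was made.

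The first comparison by disease asked whether the members made up a different share of leukocytes in OS dogs. The median share was lower in OS dogs, but the groups overlapped widely. Members were 0.891% of kept barcodes in the lowest healthy dog, 2.63% at the median and 4.33% in the highest (mean 2.84 ± 1.22 SD, n = 7). In OS dogs the values were 0.418%, 2.05% and 4.19% (mean 1.88 ± 1.17 SD, n = 10), and 8 of the 10 dogs lay below the healthy median. With the exact Wilcoxon test of ranks (two-sided), p was 0.161, or 0.323 when adjusted over the 2 shares tested.

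Among gated B cells the share of members showed no such shift. It was 9.98%, 25.9% and 36.02% (lowest, median, highest) in healthy dogs and 20.7%, 24.9% and 39.6% in OS dogs, with p = 1.0 in the exact Wilcoxon test, and leaving out single OS dogs turned in some cases the sign of the small difference between medians. The means were 25.8 ± 8.03 and 28.2 ± 7.43% (SD, n = 7 and 10). All gated B cells together were 7.29 to 16.5% of kept barcodes in healthy dogs and 1.80 to 10.6% in OS dogs.

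Healthy dog 4 held the smallest share of gated B cells as members of any dog, at 9.98% (95% exact binomial interval 7.76 to 12.6, counting error only). OS dog 4 had the largest, at 39.6% (35.0 to 44.4). Without healthy dog 4 the comparison of shares of kept barcodes gave p = 0.0559 (exact Wilcoxon), which did not pass 0.05. Cells with at least 2000 UMIs were also thinned to 2000 and the others dropped, which left 73805 of 84345 kept barcodes. The loss was uneven, with 3430 of 4760 left in healthy dog 7 and 3825 of 4105 in OS dog 4. Of the thinned cells, 464 OS and 544 healthy barcodes met the rule. The medians were 1.29% and 2.22% of the barcodes left, and p was 0.0878 by the same exact test. The set of cells changed here as well as their depth.

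**Figure D3:**
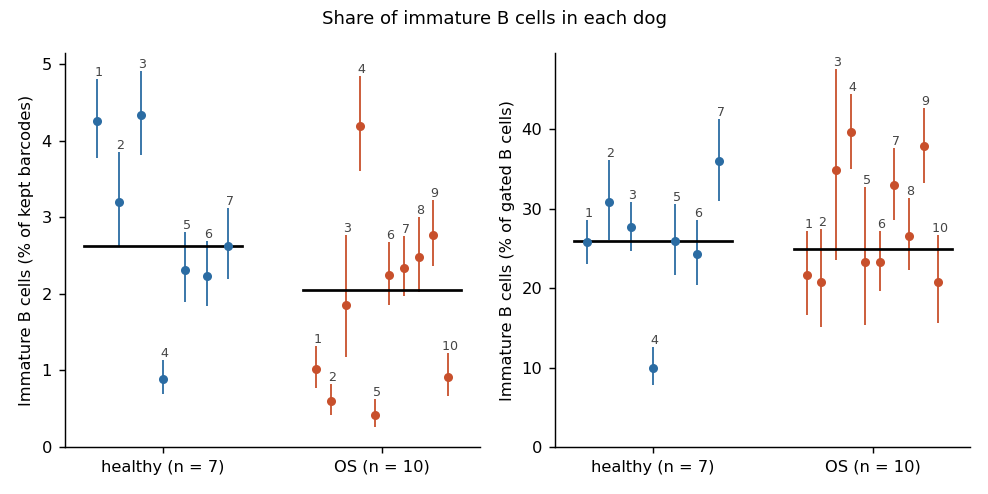
Immature B cells as a percent of kept barcodes (left) and of gated B cells (right), with 1 point per dog, its number, a 95% exact binomial interval and a black line at the group median. Healthy medians are 2.63% and 25.9%, OS medians 2.05% and 24.9%, and the groups overlap in both panels.

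Age was compared with the share of kept barcodes in the 10 OS dogs, since the healthy dogs spanned few years. Pearson's r was -0.241 (permutation p = 0.505) and Spearman's rho -0.365 (permutation p = 0.298). The relation depended on single dogs. Without OS dog 4, r was -0.850 (exact permutation p = 0.00549, n = 9) and rho -0.728 (exact permutation p = 0.0320), and without OS dog 5, r was -0.00428. Without the 2 dogs farthest from the median age, r was -0.796 and rho -0.611 (n = 8). The share of gated B cells gave r = -0.152 (permutation p = 0.666, n = 10).

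Immature B cells were then set against mature-type B cells of the same dog. These are the gated B cells that held none of the 5 genes and fewer than 2 activated genes. The name mature-type stands for the lack of rule genes and not for a stage that was tested. All 7 genes of the study's naive B cell list were higher in members, and plasma cell or monocyte genes marked 33.4% of mature-type barcodes. The contrast is therefore not to be read as immature against naive B cells. BACH2, PLAC8 and IL21R were higher in each of 15 dogs, whereas ITGB1, CD44, CD80 and TNFRSF13B were lower in each. Fewer genes differed once barcodes with plasma cell or monocyte transcripts were removed. SOX4 and MYB, each detected in a minority of members, passed the test against each of 3 sets of comparison cells.

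Counts were summed per dog and class for the 15 dogs with at least 25 cells of each (7 healthy, 8 OS; OS dogs 3 and 5 were left out) and compared in edgeR (quasi-likelihood, with a term for dog). CPM values by dog are scaled by the trimmed mean of M values (TMM). A level summed over cells does not separate more cells with a transcript from more transcript per cell. With an adjusted p below 0.01 and a log2 fold change beyond 0.58, 751 of 12307 genes were higher in members (6.1%) and 1528 were lower (12.4%). The median log2 fold change of all genes was -0.03. The counts of list genes given below are to be read against these shares.

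The mature-type class was mixed. Plasma cell or monocyte genes marked 33.4% of its barcodes and 11.4% of members. Summed over the list, monocyte and neutrophil markers were at 1593 to 6069 CPM in mature-type cells and 657 to 3420 CPM in members, and 11 of 12 were lower in members. Summed plasma cell genes were at 1288 to 10844 CPM against 304 to 764 CPM. The class comparison, the shares and the comparison of conditions were repeated after barcodes of both classes with such genes were removed, called the cleaned comparison below. It was chosen after these values were seen. It gave 232 of 11483 genes higher (2.02%) and 447 lower (3.89%), and 563 genes were called in both comparisons, 24.7% of the first set and 82.9% of the second.

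A stricter contrast set the members against cells with exactly 1 of the 5 genes, also chosen after the data were seen. It called 62 of 11850 genes higher (0.523%) and 69 lower (0.582%), of which 106 genes were also called against mature-type cells. The fold changes were smaller for most named genes, and it called 0 genes of the naive, transitional and survival receptor lists described below.

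Among B lineage transcription factors 10 of 22 were higher and 2 lower, and 5 remained higher in the cleaned comparison. BACH2 was at 4429.8, 6057 and 8107 CPM (lowest, median, highest dog) in members and 696, 1492 and 2307 CPM in mature-type cells. In the 15 dogs compared the classes did not overlap, and the log2 fold change was 2.08 ± 0.10 (SE, edgeR adjusted p = 5.74e-17), or 1.27 ± 0.05 in the cleaned comparison. Over all 17 dogs and without TMM scaling the BACH2 levels did overlap. The lowest level in members was 4503 CPM and the highest in mature-type cells 4595 CPM. FOXP1, a regulator of B cell development and quiescence, was at 840 to 1678 CPM against 305 to 687 CPM, with log2 fold changes of 1.31 ± 0.09 and 0.69 ± 0.07 in the 2 comparisons. EBF1, which specifies the B lineage, gave 1.21 ± 0.08 and 0.62 ± 0.07, and FOXO1, needed for recombinase expression in precursors, gave 1.16 ± 0.07 and 0.65 ± 0.07. Against cells with 1 of the 5 genes, BACH2 (0.56), FOXP1 (0.26), EBF1 (0.29) and FOXO1 (0.32) lay inside the fold threshold and were not called, and MYB was the 1 gene of this list that passed.

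SOX4 and MYB had low levels. SOX4 was detected in 4.67% of members with 2 of the 5 genes and in 22.4% of those with 4 or 5. For MYB the shares were 3.12% and 9.70%. SOX4 was at 3.799, 13.9 and 61.1 CPM in members and 0, 2.09 and 12.7 CPM in mature-type cells, higher in 15 of 15 dogs. Its log2 fold change was 2.62 ± 0.29 (edgeR adjusted p = 1.25e-08), 2.53 in the cleaned comparison and 2.03 against cells with 1 of the 5 genes. MYB was at 0, 20.2 and 75.1 CPM against 0, 4.45 and 33.7 CPM, higher in 12 of 15 dogs, with log2 fold changes of 1.93 ± 0.38, 2.01 and 1.99. Both genes passed the test in all 3 comparisons, which share members and are not independent. Neither gene is limited to B cells. Over 17 dogs and without TMM scaling, barcodes without CD3E, MS4A1 or PAX5 had medians of 8.02 CPM of SOX4 and 13.8 CPM of MYB. Members had 14.3 and 24.1 CPM.

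The plasma cell regulator IRF4 was lower in members (25.8 against 205 CPM at the median), with a log2 fold change of -2.58, but at 0.02 in the cleaned comparison. POU2AF1, a B cell coactivator, went from -0.81 to -0.01 in the same way. Neither passed the test once those barcodes were removed.

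Of the early B cell development list, SOX4 was the 1 gene of 7 tested that passed. VPREB1 had a log2 fold change of 2.11 ± 0.78 (edgeR adjusted p = 0.0356) at levels of 0 to 9.39 CPM. DNTT, which adds bases at immunoglobulin joins, gave 0.51 ± 0.50 (edgeR adjusted p = 0.466). RAG2 was at 0, as were the transitional cell genes CD93 and MME. The name immature B cell is the study's label, while the members were chosen by the rule and are not its clustered cells. Members were 2.84% and 1.88% of kept barcodes on average in healthy and OS dogs. The paper gives smaller shares of leukocytes for its immature B cells in both groups.

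On the transitional list 4 of 9 genes were higher and 1 lower, and in the cleaned comparison 1 was higher, IL4R. IL4R, the interleukin-4 receptor chain, was at 37.5, 56.9 and 83.6 CPM in members and 14.8, 26.4 and 47.0 CPM in mature-type cells, with log2 fold changes of 1.06 ± 0.15 and 0.93 ± 0.14, but 0.49 and no call against cells with 1 of the 5 genes. FCER2 (CD23) went from 0.66 to 0.10. CD38, a plasma cell marker as well, was lower at -3.53 and missed the test when cleaned (-0.88, edgeR adjusted p = 0.397).

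**Figure D4:**
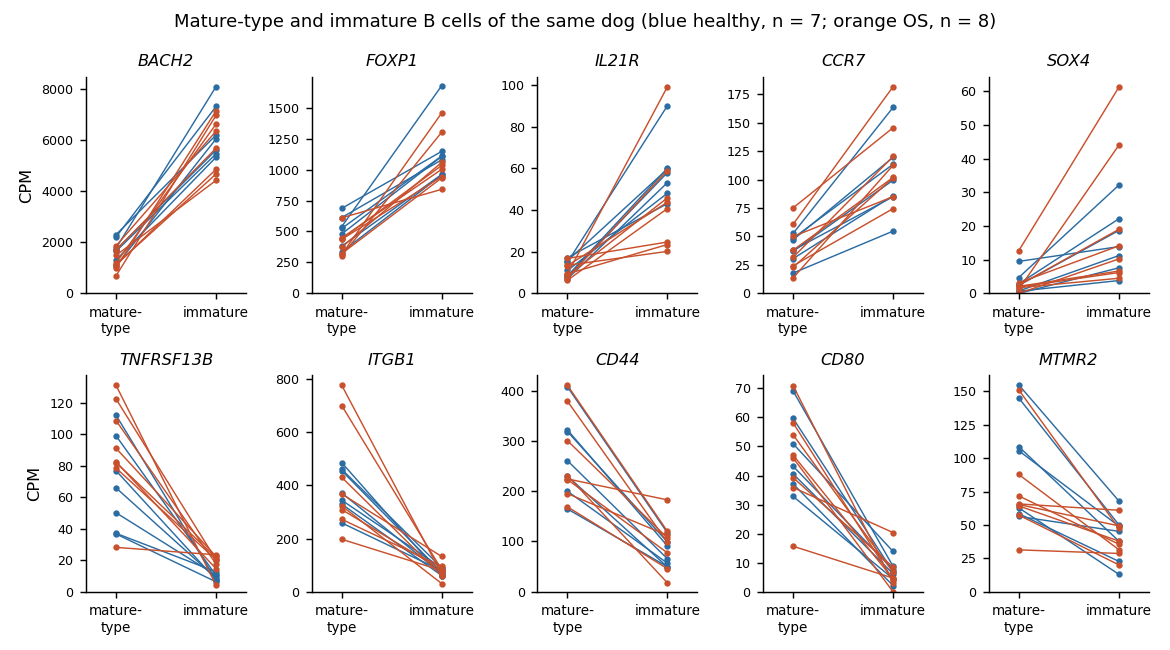
TMM-scaled CPM of 10 genes in mature-type and immature B cells, with 1 line per dog (7 healthy in blue, 8 OS in orange). In the dogs shown, the BACH2, FOXP1 and IL21R values of the 2 classes do not overlap. Neither do those of TNFRSF13B and ITGB1, which are lower in immature B cells.

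In the B cell receptor complex and its signalling, 6 of 24 genes were higher and 3 lower, and the cleaned comparison left 1 and 1. CD72, a coreceptor, was at 11.2, 30.6 and 70.9 CPM in members and 2.11, 8.13 and 15.0 CPM in mature-type cells, with log2 fold changes of 1.81 ± 0.21 and 0.85 ± 0.20. FYN, a Src family kinase, was lower in 15 of 15 dogs, at -1.66 ± 0.21 and -1.88 ± 0.18. In the cleaned comparison 5 of 10 T cell markers were also lower and 1 higher (list median -1.45). The part of T cell transcripts in the FYN difference was not tested. CD22 and CD79B had log2 fold changes of 0.89 and 0.75 against mature-type cells and 0.17 and 0.35 when cleaned, where neither passed the test.

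CD79A, usually a B cell gene, could not serve as one here. Its median was 6188 CPM in members but 8569 CPM in the barcodes with CD3E and 3553 CPM in those with none of the 3 gate genes. CD3D, a T cell receptor gene, was at 192 CPM in members, 74.4 in mature-type cells and 421 in barcodes with CD3E, and its log2 fold change between the B cell classes was 1.29 ± 0.10. CD3G was at a median of 2.10 CPM in members with a log2 fold change of -0.03, and 5 of 10 T cell markers were lower in members. CD79B was close to 0 outside B cells, at a median of 0.0533 CPM in barcodes with CD3E.

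Of 3 immunoglobulin genes tested, 3 were lower in members. IGHM was at 102, 211 and 426 CPM in members and 81.3, 607 and 4612 CPM in mature-type cells, with a log2 fold change of -1.60 ± 0.29 (edgeR adjusted p = 4.89e-05). After plasma cell and monocyte barcodes were removed, its medians were 222 and 115 CPM, and the log2 fold change was 0.80 ± 0.11 (edgeR adjusted p = 9.22e-09), higher in 14 of 15 dogs. IGKC, a light chain constant gene, was lower in both, at -3.16 ± 0.39 and -0.96 ± 0.21.

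Receptors for survival signals and cytokines split by receptor, with 5 of 16 higher and 6 lower. IL21R, the interleukin-21 receptor, was at 20.2, 48.1 and 99.2 CPM in members and 6.33, 9.41 and 17.1 CPM in mature-type cells, without overlap, and its log2 fold changes were 2.17 ± 0.18 and 1.33 ± 0.17. IL2RA (CD25) gave 2.14 ± 0.20 and 1.32 ± 0.18. TNFRSF13B (TACI) was at 4.12, 12.7 and 23.5 CPM against 28.2, 82.1 and 131 CPM, again without overlap, with -2.56 ± 0.19 and -1.27 ± 0.21. Against cells with 1 of the 5 genes, IL21R (0.55), IL2RA (0.40) and TNFRSF13B (-0.69) were not called.

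TNFRSF13C, the BAFF receptor of naive and transitional survival, was higher by 0.66 ± 0.08 but by 0.11 ± 0.06 when cleaned, which did not pass. BCL2 gave 0.93 and 0.23 in the same way. IL6R was lower at -2.33 ± 0.25 and -1.44 ± 0.36.

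Among homing genes 3 of 15 were higher and 6 lower. CCR7 was at 54.7, 102 and 182 CPM in members and 13.6, 38.0 and 75.1 CPM in mature-type cells, and gave 1.52 ± 0.12 and 0.73 ± 0.11, but 0.15 and no call against cells with 1 of the 5 genes. ITGB1, the integrin beta-1 chain, was at 30.5, 79.1 and 133 CPM against 197, 368 and 776 CPM, without overlap, and gave -2.35 ± 0.14 and -1.55 ± 0.11. CD44, an adhesion receptor of antigen-experienced lymphocytes, gave -1.65 ± 0.13 and -1.55 ± 0.12. Both adhesion genes also passed against cells with 1 of the 5 genes, at -0.77 and -0.84.

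No gene of the memory and age-associated list was higher and 6 of 12 were lower, while in the cleaned comparison 2 of 11 were higher and 3 lower. CD80 was at 0, 6.21 and 20.4 CPM in members and 15.7, 46.1 and 70.9 CPM in mature-type cells, with log2 fold changes of -2.92 ± 0.21 and -2.68 ± 0.25, and it passed against cells with 1 of the 5 genes at -1.51. FAS, a death receptor of activated cells, gave -2.28 ± 0.18 and -1.33 ± 0.23, and CD86, another costimulatory ligand, gave -2.64 ± 0.30 and -3.12 ± 0.55. Against cells with 1 of the 5 genes FAS passed (-0.92) and CD86 did not (-0.53). CD86 is also on the study's list for a dendritic cell type. In the cleaned comparison 3 of 10 dendritic cell markers were lower and 0 higher (list median -1.86). The part of such transcripts in the CD86 difference was not tested. CD70 was lower at -4.27 but gave -0.07 when cleaned. The transcription factor gene ZEB2 had -0.40 and did not pass, while in the cleaned comparison it was higher at 0.65 ± 0.09.

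The study's own gene lists were chosen on the same healthy dogs, so their counts are no independent evidence of direction. Of its naive B cell list 7 of 7 genes were higher, 3 of them also when cleaned. HTR1F was at 107, 272 and 708 CPM in members and 16.1, 80.2 and 178 CPM in mature-type cells, at 1.95 ± 0.16 and 1.06 ± 0.13, but 0.38 and no call against cells with 1 of the 5 genes. ADAM9 gave 0.87 and 0.66, whereas BANK1, a receptor scaffold, gave 0.73 and 0.12. Of its class switched list 4 of 7 were higher and 2 lower, and when cleaned 1 was higher and 2 lower. MTMR2, a lipid phosphatase, was lower in 15 of 15 dogs at -1.11 ± 0.13 and -1.73 ± 0.13, and GOLM1 gave -0.91 and -0.70. The 4 genes of the immature list outside the rule had log2 fold changes of 4.93 (TMTC2), 3.06 (TDRP), 2.46 (F8) and 0.97 (TEX9), given without a test.

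The largest higher genes by fold, at 20 CPM or more and outside the rule and the study's immature list, were led by AKAP12 (3.24 ± 0.33), ADAM22 (2.95 ± 0.24), a membrane protein of synapses, and ZNF704 (2.85 ± 0.36). PHACTR1, PCNX2, VEGFC, ZNF385C, OCA2, ENAH, PLAC8, IL21R and PLAC8A followed, between 2.45 and 2.14, and all 12 also passed in the cleaned comparison. Against cells with 1 of the 5 genes all but VEGFC, OCA2 and IL21R passed. PLAC8 was at 341, 475 and 738 CPM in members and 42.8, 104 and 316 CPM in mature-type cells, at 2.19 ± 0.13 and 1.57 ± 0.10. ADAM22 ranged from 0 to 714 CPM and OCA2, a melanosome transporter, from 0 to 300 CPM among the members of single dogs.

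Among the 12 largest lower genes, MZB1, a chaperone of antibody assembly, was at 0, 1.70 and 10.2 CPM in members and 65.8, 403 and 1812 CPM in mature-type cells (-7.36 ± 0.19). TNFRSF17, JCHAIN, TXNDC5, RARRES2, NUPR1, NT5DC2, the dividing cell genes CENPF and MKI67, and 3 genes without a symbol (ENSCAFG00000001854, ENSCAFG00000032358 and ENSCAFG00000043167) lay between -7.43 and -5.52. Of the plasma cell list 11 of 12 were lower and of the cell cycle list 8 of 13. In the cleaned comparison, whose filter itself used plasma cell genes, 0 of the 8 and 12 genes that could still be tested were called.

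Partners of SYT1 and ERC2 in vesicle release were listed too. Of 14 tested, 1 was higher and 3 were lower, beside 6.1% and 12.4% of all genes, with none called in the cleaned comparison, and SNAP25, STX1A, SYT2 and UNC13A were at 0. SNAP23, the partner used outside neurons, was at 77.2 to 143 CPM against 45.6 to 116 CPM, with a log2 fold change of 0.58 ± 0.10 that missed the fold threshold when any 1 of 9 dogs was left out (0.51 to 0.58), and 0.25 when cleaned. SYTL1, a Rab27 effector, gave -1.05 ± 0.21 and -0.77 ± 0.23.

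In antigen presentation 2 of 7 were higher and 2 lower. CIITA, the master activator of class II genes, gave 0.89 ± 0.08 and 0.30 ± 0.07, and DLA-DRA 0.36 ± 0.06 and -0.02 ± 0.04. Among 19 interferon-stimulated genes 1 was higher, IFI44L (0.77 ± 0.13 and 0.58 ± 0.14), and 4 were lower, beside 6.1% and 12.4% of all genes, with ISG20 at -3.60 ± 0.21 and -2.65 ± 0.26. Among 17 immediate early genes 1 was higher and 7 lower, including KLF6 at -0.60 ± 0.09 (-0.55 without healthy dog 1 and -0.57 without healthy dog 5, both inside the threshold) and -0.71 ± 0.08.

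Of the markers of other cells, 2 of 9 cytotoxic, 5 of 10 dendritic cell, 5 of 6 platelet and erythrocyte and 1 of 7 progenitor genes were lower in members, beside 12.4% of all genes, and none was higher. In the cleaned comparison the lower genes were 3 of 9 cytotoxic (list median -1.43 on the log2 scale), 3 of 10 dendritic cell (-1.86), 5 of 6 platelet and erythrocyte (-2.13), 2 of 7 progenitor (-1.72), 5 of 10 T cell (-1.45) and 5 of 11 monocyte and neutrophil genes (-1.26), beside 3.89% of all genes. The filter itself used monocyte genes, so the monocyte and neutrophil count is in part set by it. The part of these cells in the B cell results was not tested. S100A8 was lower in both comparisons (-2.14 ± 0.30 and -2.99 ± 0.27). LYZ, the lysozyme gene, turned from -0.77 ± 0.16 to 0.73 ± 0.07.

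**Figure D5:**
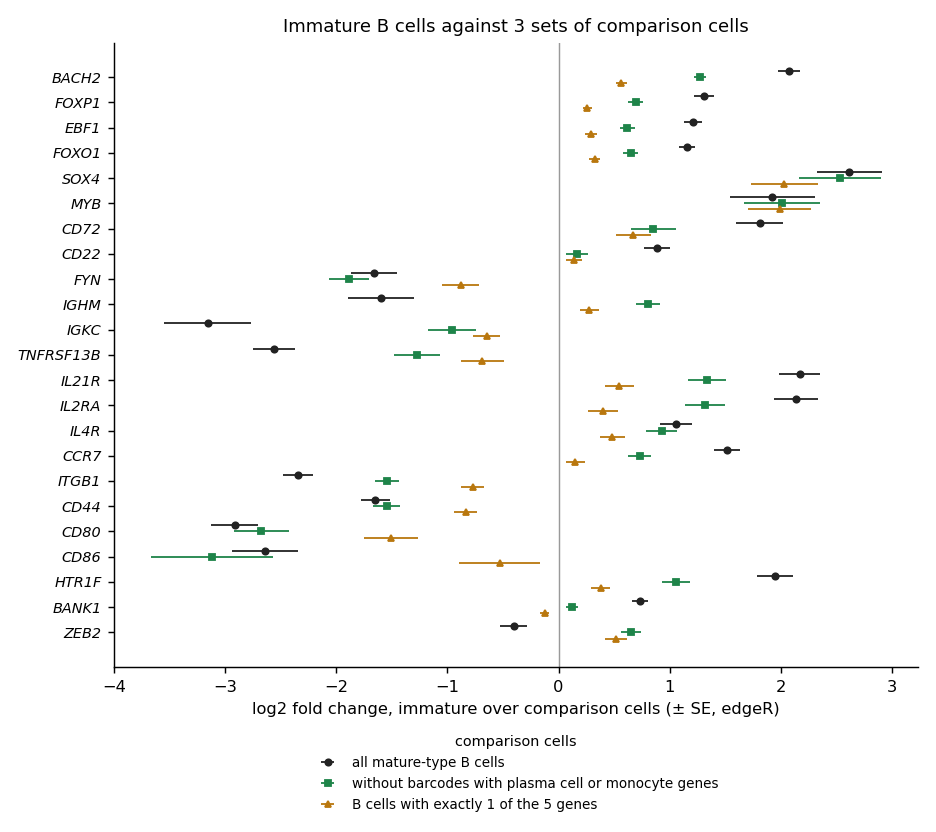
Log2 fold change (± SE, edgeR, 15 dogs) of 23 genes in immature B cells over all mature-type B cells (black), mature-type cells after removal of barcodes with plasma cell or monocyte genes (green) and cells with exactly 1 of the 5 genes (orange). SOX4 and MYB lie between 1.93 and 2.62 in all 3, while IGHM moves from -1.60 to 0.80.

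The last comparison asked whether the members themselves differed between OS and healthy dogs. No gene passed the test, and levels overlapped between the groups for every list gene. SOX4 and MYB had similar medians in both groups. TNFRSF13B and PLD4 had higher medians in OS dogs and did not pass the test.

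With edgeR on summed counts of 7 healthy and 8 OS dogs, 0 of 10842 genes were called (0.0%), and 579 had an unadjusted p below 0.05. DESeq2 also called 0, with 414 unadjusted. The smallest edgeR adjusted p was 0.828. The tested genes include 11 rule genes and the 4 further genes of the study's list, whose outcomes are not read as results. Among 273 measured list genes, not all of which had enough counts to be tested, 17 had an unadjusted p below 0.05, beside 579 of all 10842 tested genes.

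TMTC2 was at 8.74, 66.2 and 192 CPM in healthy dogs and 0, 22.7 and 119 CPM in OS dogs (given without a test, as a gene of the study's list for these cells). SOX4 was at 4.01, 14.9 and 33.3 CPM against 4.74, 12.8 and 64.1 CPM (0.23 ± 0.47 on the log2 scale), and MYB at 3.14, 21.5 and 60.5 CPM against 0, 22.01 and 79.1 CPM (0.03 ± 0.55). BACH2 gave -0.11 ± 0.15. With standard errors of this size at low counts, moderate differences in such genes were not detectable between these dogs.

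IGHM was at 109, 190 and 279 CPM in healthy dogs and 174, 244 and 453 CPM in OS dogs (0.48 ± 0.20, edgeR adjusted p = 0.896). TNFRSF13B was at 6.71, 9.08 and 13.3 CPM against 4.26, 21.5 and 24.7 CPM (0.90 ± 0.33), and PLD4, an endosomal nuclease, at 6.62, 14.9 and 40.8 CPM against 9.05, 39.6 and 85.4 CPM (1.14 ± 0.42). IFI44, an interferon-stimulated gene, was at 6.71, 17.3 and 46.9 CPM against 16.4, 34.7 and 96.1 CPM (0.95 ± 0.35). HTR1F gave -0.61 ± 0.28 and BANK1 -0.36 ± 0.15. The neutrophil and monocyte genes S100A8 and S100A12 gave 1.56 ± 0.72 and 1.81 ± 0.88 (2.99 and 4.22 with doublets removed, 1.05 and 1.08 without OS dog 4, and 1.12 and 1.26 without OS dog 9). They were at 909 and 665 CPM in OS dog 4 and 854 and 583 CPM in OS dog 9, where the OS medians were 68.3 and 18.1 CPM, and the part of such transcripts in other differences was not tested. These genes shared an edgeR adjusted p of 0.896 and their groups overlapped. For TNFRSF13B the overlap rested on OS dog 9, since the other 7 OS dogs lay at 15.2 to 24.7 CPM, and without that dog the log2 fold change was 1.09 (edgeR adjusted p = 0.853).

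Among the rule genes, SYT1 in the members of OS dog 4 was at 73.4 CPM, where the OS median was 411 CPM and the healthy dogs had 379 to 548 CPM.

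Whether the difference between immature and mature-type cells itself differed between OS and healthy dogs was tested by the interaction term. Of 12322 genes 2 were called (0.0162%), the neutrophil granule peptide gene CAMP and ENSCAFG00000043966, which has no symbol. On simulated counts with 3-fold changes planted in 200 genes, the same fit called 9 unchanged genes, so it can make false calls. Planted changes on that scale loosen the adjusted threshold, so the number of false calls to expect here is not known. ENSCAFG00000043966 was higher in members in 7 of 7 healthy dogs (median 6.31 against 1.57 CPM) and in 1 of 8 OS dogs (4.75 against 13.3 CPM), with an interaction of -4.79 ± 0.78 (edgeR adjusted p = 0.00378). DESeq2 gave the same gene an adjusted p of 0.0922. In members it ran from 3.47 to 16.6 CPM in healthy dogs and from 0 to 9.39 CPM in OS dogs, which rests on few UMIs per dog. Its highest level was 130 CPM, in the mature-type cells of OS dog 8. Plasma cell or monocyte genes marked 52.8% of those cells. The median share so marked was 27.7% in the 7 healthy dogs and 40.9% in the 10 OS dogs. The part of such barcodes in the interaction of this gene was not tested. CAMP had an interaction of 8.53 ± 1.04 (edgeR adjusted p = 6.14e-05; DESeq2 adjusted p = 1.00) and most of its counts lay in 3 dogs. It was at 590 CPM in the mature-type cells of healthy dog 3, at 432 CPM in the members and 214 CPM in the mature-type cells of OS dog 9, and at 104 CPM in the members of OS dog 4. In every other dog and class it was at 9.39 CPM or less. OS dogs 4 and 9 also had the highest levels of S100A8 and S100A12 among members, as given above, and the part of neutrophil transcripts in this interaction was not tested. The interaction was not repeated on cleaned classes.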

How the data were processed

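Single-cell RNA was measured in peripheral blood mononuclear cells of 7 healthy dogs and 10 dogs with OS, 1 library per dog (Chromium 3′ v3.1). The authors deposited UMI counts per gene and barcode, made with Cell Ranger 7.0.0 on CanFam3.1 per the labels, whose processing notes also name Seurat. Per the methods, each library was aligned in both settings for intronic reads (counted or left out). Which setting gave the deposited counts is not given in the sources used here. Counts of 20257 genes were used as deposited.

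Kept barcodes lay between 200 and 4500 genes and between 500 and 20000 UMIs, with mitochondrial UMIs under 10% (84345 of 93013). The total of UMIs in immature B cells per dog was 88911 to 1295115, and intervals cover counting error only. Barcodes with the highest Scrublet scores (scanpy 1.11.5), up to the doublet rate that the number of recovered barcodes predicts, were taken as doublets, kept in the main analysis and removed in an alternative. Barcodes were classed by UMIs of 12 rule genes, and no clustering was done. The members, gene lists and tests were chosen with earlier results of these data known. Between classes, the 12 rule genes and 4 further genes of the study's list are described without a test and left out of the counts of calls. Those that reached 10 counts stayed among the genes tested between conditions and for the interaction.

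Shares were compared with exact two-sided Wilcoxon rank-sum tests (scipy 1.17.1). Counts were summed per dog and class (25 cells or more), and each gene that reached 10 counts was tested in edgeR 4.0.16 (quasi-likelihood, TMM, R 4.3.3). A gene was called at a Benjamini-Hochberg adjusted p below 0.01 where its log2 fold change also exceeded 0.58 in size. The classes of a dog were compared with a term for dog, the conditions without covariates, and the interaction of class and condition in the same way. The SE is the log2 fold change divided by the root of the F statistic. Each dog is 1 animal and the replicate of its group. Named genes were members of 24 lists (273 of 304 genes measured) and the 12 called genes of largest fold in each direction at a mean of at least 20 CPM in either class. DESeq2 1.42.0, other filters and scaling, doublet removal, comparison cells of nearest UMI total (an incomplete match in several dogs), other comparison cells and leaving out each dog were tried as alternatives. All 3 fits were tested on simulated counts with planted changes, where the interaction fit called more unchanged genes than the others. Sequences and coordinates are not analysed here, and some genes are not reported here.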

Additional observations from a re-analysis of the deposited data

Results flagged for a closer look

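Single dogs stood apart from the rest of their group for several values, by Dixon's ratio in 66 groups of dogs, where chance alone gives about 1 in 20. The share of members with SYT1 was 8.14% in OS dog 4, against 43.2 to 82.5% in the other OS dogs, and 83.5% in healthy dog 6, against 64.8 to 72.3%. Among levels in members, SYT1 was at 548 CPM in healthy dog 6 (others 379 to 427) and ERC2 at 750 CPM in healthy dog 2 (others 64.2 to 257). The flags of SYT1 and ERC2 rest on values that the rule itself used and are given as description only. FOXP1 was at 1784 CPM in healthy dog 2, IL21R at 97.0 CPM in healthy dog 5 and PLD4 at 40.8 CPM in healthy dog 1, each above the other healthy dogs. Among OS dogs HTR1F was at 616 CPM in dog 8 and CXCR4 at 688 CPM in dog 2. BANK1 was lowest in OS dog 10 (705 CPM), where IFI44 was highest (96.1 CPM), and TNFRSF13B was lowest in OS dog 9 (4.26 CPM).

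The interaction of class and condition stood out for CAMP (8.53 on the log2 scale) and ENSCAFG00000043966 (-4.79). DESeq2 called neither.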

How the results depend on the processing

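The lower share of members among kept barcodes in OS dogs kept its direction, with p above 0.05, under every alternative run (difference of medians -0.86 to -0.38 percentage points when single dogs were left out). The share among gated B cells differed by -0.96 percentage points between medians, by -2.64 to 0.72 when single dogs were left out, by 2.03 with cells thinned to 2000 UMIs and by 3.78 with plasma cell and monocyte barcodes removed. The correlation with age ran from r = -0.850 to r = -0.00428 when single dogs were left out, and without OS dog 4 it passed the threshold.

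The 2279 genes called between classes became 1083 against all other gated B cells, 1481 with comparison cells chosen by the nearest UMI total (sums stayed unequal in several dogs, such as 439470 UMIs in members and 740275 in comparison cells of OS dog 8), 1511 with edgeR filterByExpr (6572 genes tested), 679 with plasma cell and monocyte barcodes removed and 131 against cells with 1 of the 5 genes, and 2132 to 2326 when single dogs were left out. The split of higher and lower calls moved from 751 and 1528 to 159 and 924 against all other gated B cells. With plasma cell and monocyte barcodes removed, 4 of 80 named genes changed sign with a call in either comparison (IRF4 0.022, IGHM 0.80, ZEB2 0.65, LYZ 0.73) and 21 lost the call. Against cells with 1 of the 5 genes, 7 of 85 changed sign in the same sense (CD79B -0.081, IGHM 0.28, TNFRSF13C -0.051, BCL2 -0.13, BANK1 -0.12, FCER2 -0.047, LYZ 0.18) and 41 lost the call.

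Between OS and healthy dogs 0 genes were called under every alternative except the replicate block, which called 1 gene. The numbers of the dogs name separate animals. The deviations of same-numbered dogs had correlations of -0.07 to 0.19 over 5 pairs and 5859 genes. Only for number 1 (0.19) was the OS dog that matched best the one of the same number. The block pairs nothing known. The 2 interaction calls became 0 with DESeq2 and 0 with dogs of at least 10 cells. The cause of these changes was not tested.

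Counts were low in places: OS dogs 3 and 5 had 23 members each, and RAG1, VPREB1 and DNTT were near the level of single UMIs, so absence cannot be told from low level. A rule gene is seen only when a UMI was captured. Which alignment, with or without intronic reads, gave these counts is not known.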

Other observations

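Members were also split by SYT1. TMTC2 (89.4 against 24.8 CPM), SOX4 (23.8 against 9.16), MYB (34.3 against 8.57) and AKAP12 (42.7 against 12.12) were higher with SYT1, as they were with VPREB3, whereas BACH2 and HTR1F, lower with VPREB3, were higher with SYT1. In the 1197 members with SYT1, CD44 was at 58.0 CPM, against 160 CPM in the 675 members without it, and it was lower in 16 of 17 dogs. BACH2 was at 7540 and 4980 CPM and HTR1F at 426 and 233 CPM, each higher with SYT1 in 16 of 17 dogs. IGHM was detected in 60.4% of members with SYT1 and in 46.1% without it. These levels pool the cells of all dogs. OS dog 4, with SYT1 in 8.14% of its 172 members, weighs more on the members without SYT1. Counted by dog, TMTC2 and MYB were higher with SYT1 in 14 of 17 dogs, SOX4 in 15 and AKAP12 in 16.

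Members with ADGRF1 had more BACH2 (7597 against 6156 CPM, higher in 11 of the 12 dogs with at least 10 members of each kind) and more ADAM22 (312 against 178 CPM, higher in 10 of 12 dogs). These splits use rule genes, were chosen after the data were seen and were not tested.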
